A study of Mus musculus with 9 samples.

Results

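Oligodendrocyte (OLG) progenitors and the first cells they turn into carry a small set of receptors, secreted proteins and enzymes that other cells of the cortex make little of. The 10 markers described here were listed by name: Pdgfra, Cspg4, C1ql1, Matn4, Pcdh15, Cacng4 and Lhfpl3 mark the progenitors, and Gpr17, Neu4 and Bmp4 mark cells that have begun to differentiate. They were matched to the deposited counts by the Ensembl identifiers that the GENCODE mouse annotation gives them. Of the 43629 genes in the counts, 9 were members of this set, and all 9 were among the 19753 genes that passed a filter on low counts. The identifier of Lhfpl3 matched no row, and the level of Lhfpl3 was not analysed here.

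A progenitor divides in response to platelet-derived growth factor through the receptor that Pdgfra encodes, and it wears the proteoglycan NG2, which Cspg4 encodes. As a cell leaves this state it switches on Gpr17, a receptor that is shut off again before myelin is made, together with the sialidase Neu4 and the bone morphogenetic protein Bmp4. In the adult cortex such progenitors are spread through the gray matter and keep dividing slowly. Some members are also made outside the lineage: Pdgfra is known from fibroblasts of the meninges and vessels, and Cspg4 from mural cells.

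Total RNA depleted of ribosomal RNA from frontal cortex was sequenced for 5 wild-type (WT) mice and 4 mice homozygous for a disrupted Neat1 gene (Neat1-/-), all of them C57BL/6 females. WT replicates 1 to 5 were 2, 2, 3, 4 and 4 months old, and the Neat1-/- replicates 1, 3, 4 and 5 were 3, 3, 4 and 2 months old. In the Neat1-/- mice lacZ with polyadenylation signals sits just behind the start site of Neat1, a long noncoding RNA that holds paraspeckles together, so every cell of the body carried the change and not the OLG lineage alone. In bulk tissue, fewer cells of a type and less RNA per cell cannot be told apart. Total counts ran from 51276067 to 64648856 per library. Levels are given as CPM, the counts scaled to a common library size of 1e+06 after TMM normalization, which sets the libraries against each other. Neat1 itself measured 60.8 to 120 CPM in WT mice and 7.11 to 9.72 CPM in Neat1-/- mice. WT replicates 3 and 4 stood apart, with 0.234% and 0.213% of their counts in unconfirmed (TEC) and sense intronic gene models against 0.113% to 0.136% in the other 7 libraries. WT replicate 4 also held 60.7 CPM of 12 fibroblast markers in sum, where the other libraries held 150 to 316 CPM.

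Per kilobase of exon, Pdgfra and Gpr17 were the most abundant members in the cortex, and Bmp4 was the least abundant in WT mice. Exon length was the union of all annotated exons of a gene, and the order rests on it. Before division by length, Pcdh15, at 37.0 CPM in WT mice, stood above Gpr17, at 33.3 CPM. In WT mice Pdgfra reached 7.65 CPM per kb and Gpr17 6.40 CPM per kb. Cacng4 and Cspg4 followed at 2.53 and 2.44 CPM per kb. C1ql1, Neu4, Pcdh15, Matn4 and Bmp4 lay between 1.90 and 1.15 CPM per kb. In Neat1-/- mice Pdgfra stood at 7.61 and Gpr17 at 5.30 CPM per kb, Cspg4 and Cacng4 changed places at 2.26 and 2.19 CPM per kb, and Matn4, at 1.16 CPM per kb, was the lowest in place of Bmp4, at 1.44 CPM per kb. Of the neighbours in the WT order, Gpr17 stood above Cacng4 in all 9 mice, with no overlap of the WT values, and Cspg4 above C1ql1 in all 9. Pdgfra stood above Gpr17 in 8 mice, C1ql1 above Neu4 in 8 and Pcdh15 above Matn4 in 8, while Neu4 stood above Pcdh15 in 6, Matn4 above Bmp4 in 5 and Cacng4 above Cspg4 in 4. In WT mice the ranges of each pair other than Gpr17 and Cacng4 overlapped. Whether neighbours differed within mice was not tested. The spread over the 9 mice differed widely between members: the coefficient of variation was 6.35% for Pdgfra and 6.86% for Cspg4, 8.84% for C1ql1, between 10.4% and 13.4% for Neu4, Cacng4 and Matn4, and it rose to 15.6% for Pcdh15, 18.4% for Gpr17 and 27.4% for Bmp4. Counts ranged from 80, for Bmp4 in WT replicate 4, to 5209, for Pdgfra in WT replicate 2, so counting error was much larger for Bmp4 and C1ql1 than for Pdgfra.

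The 250 bases before the RefSeq start site were read for 7 of the 10 members on the GRCm38.p6 assembly. They are printed for Pdgfra, the receptor with the highest level, and for Neu4 and Bmp4, which mark the first step of differentiation, because the OLG factors Olig1 and Olig2 described further on belong to the basic helix-loop-helix family, whose members bind E-boxes. Capitals mark every E-box (CANNTG, which reads the same on both strands). The window of Pdgfra lies at chr5:75152001-75152250 on the plus strand, that of Neu4 at chr1:94020243-94020492 on the plus strand and that of Bmp4 at chr14:46390670-46390919 on the minus strand.
Pdgfra: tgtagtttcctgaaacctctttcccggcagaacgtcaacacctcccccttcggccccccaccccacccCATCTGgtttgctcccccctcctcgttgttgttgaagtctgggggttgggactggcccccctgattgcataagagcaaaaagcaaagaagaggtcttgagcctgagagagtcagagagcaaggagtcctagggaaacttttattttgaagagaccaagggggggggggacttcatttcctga
Neu4: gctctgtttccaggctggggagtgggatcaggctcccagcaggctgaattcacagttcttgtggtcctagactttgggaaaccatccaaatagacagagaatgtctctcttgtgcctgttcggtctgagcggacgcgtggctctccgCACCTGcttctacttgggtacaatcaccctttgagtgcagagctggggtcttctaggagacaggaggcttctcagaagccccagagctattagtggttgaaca
Bmp4: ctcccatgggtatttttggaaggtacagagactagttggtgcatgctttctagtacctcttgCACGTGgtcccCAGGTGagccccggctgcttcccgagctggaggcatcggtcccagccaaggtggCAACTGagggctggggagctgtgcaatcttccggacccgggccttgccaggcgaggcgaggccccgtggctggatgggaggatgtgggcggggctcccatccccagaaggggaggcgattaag
Pdgfra and Neu4 held 1 match each and Bmp4 held 3 in these letters. Counting the other windows, 6 of the 7 members, Lhfpl3 included, held at least 1 E-box, and so did 66.2% of the 32851 upstream windows of all genes. Matn4, with windows of 1 and 0 matches, was counted as holding 1, whereas the share over all genes was taken per window. The motif ACAATG, the core that SOX factors read, was searched on both strands and was in none of the 7 members' windows, against 10.7% of all windows. Base composition varied among these 3: the G and C share was 54.4% for Pdgfra, 53.6% for Neu4 and 63.2% for Bmp4, beside a median of 52.4% over all windows.

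The first comparison asked whether the markers differ between the cortex of Neat1-/- and WT mice of like age. Most members were lower in Neat1-/- mice by a small amount, Pdgfra hardly differed, and Bmp4 alone was higher, but no difference passed the test across all genes. Log2 fold changes of Neat1-/- over WT, from an edgeR quasi-likelihood fit with age as a covariate, were negative for 8 of the 9 members (9900 of the 19753 genes tested were negative). Their median was -0.17, where the median of all genes tested was -0.0002. At an adjusted p under 0.05, 0 members were called in edgeR, 0 in DESeq2 and 0 in limma's voomWithQualityWeights, beside 0.0709% of all genes in edgeR. At an unadjusted p under 0.05, Gpr17 and Cacng4 were lower, 2 of 9 members beside 4.03% of all genes, and 0 were higher beside 4.27%. DESeq2 gave 2 lower and 0 higher, beside 792 and 748 of all genes tested. Limma gave 4 lower and 1 higher, beside 868 and 1087 of all genes tested. In 0 of the 9 members were the genotypes' CPM values free of overlap, beside 2.67% of all genes. The two-sided exact permutation test over all splits of the mice, which does not take age into account, gave p under 0.05 for 0 members, beside 6.81% of all genes, and can go down to 0.00794. The split of all genes depended on the scaling: with TMM, 796 genes had a lower and 843 a higher level at that unadjusted p, 947 and 648 with library size alone, and 1052 and 574 with upper-quartile factors, while the members' counts were 2 and 0, 4 and 0, and 4 and 0.

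**Figure D1:**
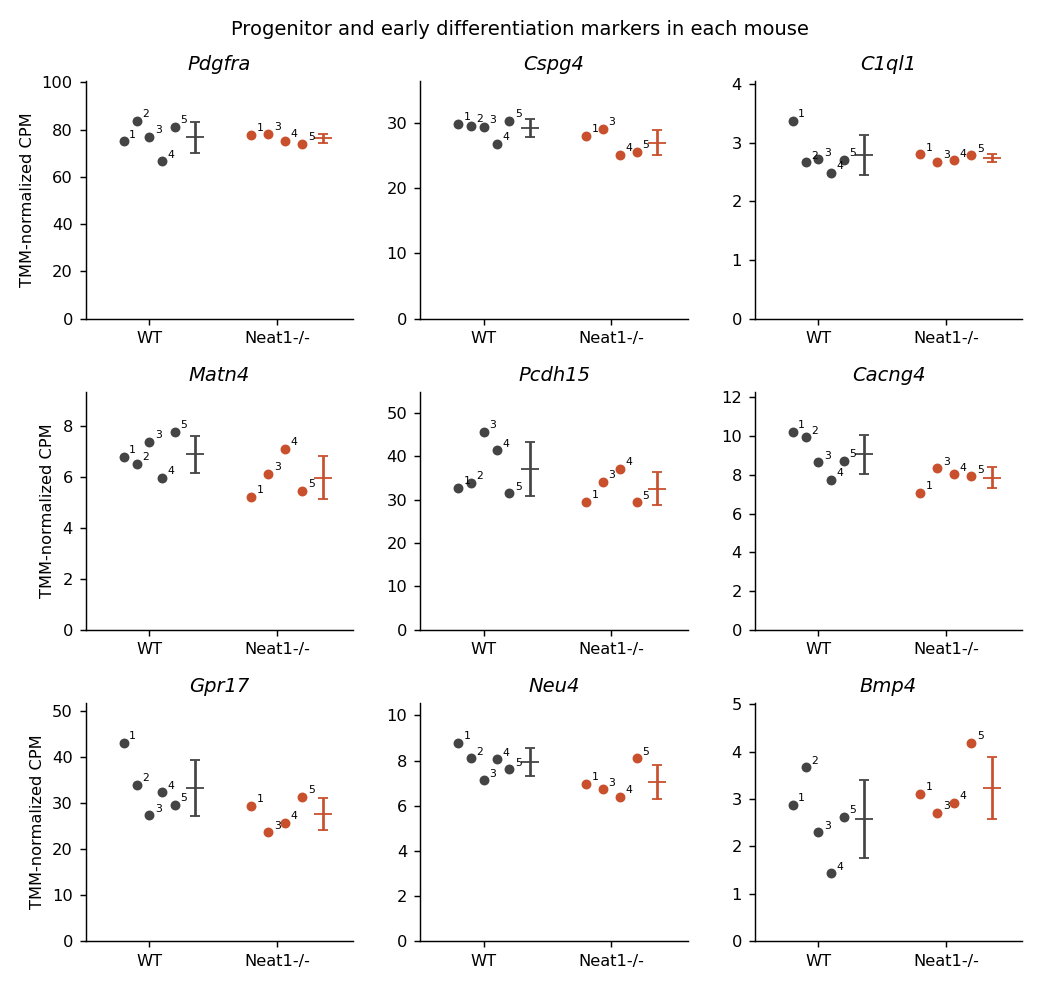
TMM-normalized CPM of the 9 members (vertical axes, each starting at 0) in 5 WT mice (gray) and 4 Neat1-/- mice (orange), with the replicate number beside each point and the mean ± SD as a bar to the right. The genotypes overlap in every panel, most closely for Pdgfra and C1ql1, and WT replicate 1 is the highest point for Gpr17, C1ql1, Neu4 and Cacng4.

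Pdgfra (ENSMUSG00000029231, chromosome 5, 75152292 to 75198215, plus strand) encodes the receptor that keeps progenitors dividing. It measured 74.9, 83.8, 77.0, 66.5 and 81.2 CPM in WT replicates 1 to 5 and 77.8, 78.1, 75.1 and 74.1 CPM in Neat1-/- replicates 1, 3, 4 and 5. All 4 Neat1-/- values lay inside the WT range. The group means were 76.7 ± 6.64 CPM (SD, n = 5) and 76.3 ± 1.99 CPM (SD, n = 4). At -0.01 on the log2 scale (standard error 0.055, edgeR adjusted p = 0.98), it had a 95% interval from -0.13 to 0.11. The sign of so small a value turned with the fit: it was positive with limma's weights, with a replicate block, and without WT replicate 2 (0.02), WT replicate 5 (0.03) or Neat1-/- replicate 5 (0.02). The lowest value of Pdgfra, in WT replicate 4, came from the library with the lowest sum of fibroblast markers; the part of other cells in the level of Pdgfra was not tested.

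Cspg4 (ENSMUSG00000032911, chromosome 9, 56865033 to 56899870, plus strand), the NG2 proteoglycan, was 29.8, 29.5, 29.4, 26.8 and 30.3 CPM in the WT mice and 28.0, 29.1, 25.1 and 25.5 CPM in the Neat1-/- mice. A pair of Neat1-/- mice, replicates 4 and 5, lay below every WT mouse, and WT replicate 4 lay below the other 4 WT mice. The log2 fold change was -0.12 (standard error 0.055, unadjusted p = 0.0563, edgeR adjusted p = 0.607). Leaving out WT replicate 4 gave -0.15 (unadjusted p = 0.0178), leaving out Neat1-/- replicate 1 gave -0.14 (unadjusted p = 0.044), and leaving out Neat1-/- replicate 3 gave -0.16 (unadjusted p = 0.0186). In the other direction, it was -0.09 without WT replicate 5 (unadjusted p = 0.123) or Neat1-/- replicate 4 (unadjusted p = 0.169) and -0.08 without Neat1-/- replicate 5 (unadjusted p = 0.209). Mural cells also make NG2, and their 12 markers summed to 279 to 369 CPM in WT mice and 315 to 329 CPM in Neat1-/- mice, with the lowest sum in WT replicate 4; 0 of the 12 were lower or higher at an unadjusted p under 0.05 in edgeR, and 1 was lower without WT replicates 3 and 4.

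C1ql1 (ENSMUSG00000045532, chromosome 11, 102939264 to 102946688, minus strand) encodes a secreted C1q-like protein, a ligand of the adhesion receptor Adgrb3. It was 3.38, 2.67, 2.72, 2.49 and 2.71 CPM in the WT mice and 2.80, 2.67, 2.71 and 2.79 CPM in the Neat1-/- mice. WT replicate 1 was high, and the other 8 mice lay close together. Its log2 fold change of -0.02 (standard error 0.12, edgeR adjusted p = 0.969) became 0.04 without WT replicate 1, and the 95% interval, -0.28 to 0.24, was wide for a gene with 140 to 207 counts per library. Of 8 tested genes of C1q-like proteins and their receptor, 0 were lower and 0 higher at an unadjusted p under 0.05 in edgeR and in limma; Adgrb3, at 234 CPM (WT) and 229 CPM (Neat1-/-), differed by -0.03 on the log2 scale.

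Matn4 (ENSMUSG00000016995, chromosome 2, 164389393 to 164405160, minus strand) encodes matrilin 4, an adaptor protein of the extracellular matrix. It was 6.81, 6.53, 7.40, 5.97 and 7.79 CPM in the WT mice and 5.23, 6.14, 7.11 and 5.46 CPM in the Neat1-/- mice. Neat1-/- replicates 1 and 5 lay below all WT mice, and replicate 4 lay above 3 of them. The log2 fold change was -0.21 (standard error 0.11, unadjusted p = 0.0696, edgeR adjusted p = 0.63). It passed an unadjusted p of 0.05 without WT replicate 4 (-0.30, unadjusted p = 0.00596) and without Neat1-/- replicate 4 (-0.29, unadjusted p = 0.0245), and was -0.18 without WT replicate 5 (unadjusted p = 0.142) and -0.16 without Neat1-/- replicate 1 (unadjusted p = 0.195). Matn2, the most abundant matrilin at 41.2 CPM (WT) and 39.6 CPM (Neat1-/-), differed by -0.06 on the log2 scale (edgeR adjusted p = 0.819).

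Pcdh15 (ENSMUSG00000052613, chromosome 10, 73099342 to 74649737, plus strand), a protocadherin best known from the tip links of hair cells, is spread over 1550396 bases. It was 32.7, 33.9, 45.7, 41.4 and 31.4 CPM in the WT mice and 29.5, 34.2, 37.1 and 29.4 CPM in the Neat1-/- mice. WT replicates 3 and 4 were the highest of all, and these are the libraries with the most counts in intronic and unconfirmed models. The log2 fold change was -0.19 (standard error 0.1, unadjusted p = 0.0837, edgeR adjusted p = 0.638). Without WT replicates 3 and 4 it was -0.03 (unadjusted p = 0.694), without replicate 3 alone -0.11, and without WT replicate 5 it was -0.29 (unadjusted p = 0.00185). It passed an unadjusted p of 0.05 in 5 of 20 other fits. Besides the fit without WT replicate 5, these used limma (unadjusted p = 0.0495), no filter (unadjusted p = 0.0122), a replicate block (unadjusted p = 0.0052) or age as a factor (unadjusted p = 0.0443). Among 8 tested genes of the tip-link complex, Pcdh15 included, 0 passed an unadjusted p of 0.05 in edgeR, and 1 was lower in limma. Myo7a, a myosin of this complex, measured 29.0 CPM (WT) and 28.9 CPM (Neat1-/-).

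Cacng4 (ENSMUSG00000020723, chromosome 11, 107732357 to 107794557, minus strand) encodes an auxiliary subunit of AMPA-type glutamate receptors. It was 10.2, 9.94, 8.65, 7.73 and 8.72 CPM in the WT mice and 7.07, 8.34, 8.02 and 7.93 CPM in the Neat1-/- mice. Every Neat1-/- mouse lay below 4 of the 5 WT mice, and WT replicate 4 was lower than 3 of the 4 Neat1-/- mice. The means were 9.05 ± 1.02 CPM (SD, n = 5) and 7.84 ± 0.544 CPM (SD, n = 4). Its log2 fold change was -0.20 (standard error 0.083, 95% interval -0.38 to -0.02, unadjusted p = 0.0305, edgeR adjusted p = 0.58), and the two-sided exact permutation p was 0.0794. The unadjusted call was lost in 7 of 20 other fits: without WT replicate 1 (unadjusted p = 0.0635), 2 (unadjusted p = 0.0578) or 5 (unadjusted p = 0.0558), without Neat1-/- replicate 1 (unadjusted p = 0.097) or 5 (unadjusted p = 0.0991), with age as a factor (unadjusted p = 0.0661) and with a replicate block (unadjusted p = 0.113). Cacng6, the other of 7 tested subunit genes with an unadjusted p under 0.05, was low and stood at 0.577 CPM (WT) and 0.956 CPM (Neat1-/-), which differ by 0.74 on the log2 scale (edgeR adjusted p = 0.58).

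Gpr17 (ENSMUSG00000052229), a G protein-coupled receptor related to the cysteinyl leukotriene and P2Y receptors, marks cells on the way from progenitor to OLG. It was 43.1, 33.9, 27.3, 32.4 and 29.6 CPM in the WT mice and 29.4, 23.7, 25.7 and 31.4 CPM in the Neat1-/- mice. Neat1-/- replicates 3 and 4 lay below every WT mouse, and all 4 Neat1-/- mice lay below 3 of the 5 WT mice. Means of 33.3 ± 6.05 CPM (SD, n = 5) and 27.5 ± 3.48 CPM (SD, n = 4) gave a log2 fold change of -0.27 (standard error 0.094, 95% interval -0.47 to -0.07) or a change of -17.1%. The unadjusted p was 0.0134 and the edgeR adjusted p 0.543. It was the member whose unadjusted p stayed under 0.05 in all 20 other fits that gave one, from 0.000156 to 0.0475, with log2 fold changes between -0.33 and -0.19 and adjusted p from 0.0946 to 0.893. Without age as a term, the exact permutation test gave p = 0.135. Of 9 tested genes of its receptor family it was the 1 that was lower, and 0 were higher. Gpr17 lies on chromosome 18 from 31942997 to 31949636 on the minus strand, and 188 bases of its exons, 3.62%, are shared with exons of Lims2 on the other strand. The sources used here do not state whether reads were counted by strand, so reads from these bases cannot be assigned.

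Neu4 (ENSMUSG00000034000, chromosome 1, 94020451 to 94028334, plus strand) encodes a sialidase, which trims sialic acid from glycans. It was 8.78, 8.10, 7.12, 8.05 and 7.61 CPM in the WT mice and 6.97, 6.73, 6.39 and 8.10 CPM in the Neat1-/- mice. Neat1-/- replicates 1, 3 and 4 lay below all WT mice, and replicate 5, the youngest of its group, lay among the highest. The log2 fold change was -0.17 (standard error 0.081, unadjusted p = 0.0523, edgeR adjusted p = 0.602). It passed an unadjusted p of 0.05 in 8 of 20 other fits, among them those without WT replicate 2 (unadjusted p = 0.0488), WT replicate 3 (unadjusted p = 0.0193) and Neat1-/- replicate 5 (unadjusted p = 0.0281), and leaving out the other libraries in turn gave up to 0.115. Neu1, the lysosomal sialidase, was 59.6 CPM (WT) and 59.9 CPM (Neat1-/-), which differ by 0.01 on the log2 scale (edgeR adjusted p = 0.962).

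Bmp4 (ENSMUSG00000021835, chromosome 14, 46383520 to 46390669, minus strand) encodes a secreted signal that can hold back OLG differentiation. It was 2.87, 3.67, 2.30, 1.42 and 2.63 CPM in the WT mice and 3.11, 2.71, 2.92 and 4.18 CPM in the Neat1-/- mice. WT replicate 4 was the lowest by far, and Neat1-/- replicate 5 the highest. The log2 fold change was 0.34 (standard error 0.17, 95% interval -0.03 to 0.72, unadjusted p = 0.0704, edgeR adjusted p = 0.63), which is a level 26.8% higher. It passed an unadjusted p of 0.05 in 6 of 20 other fits. These were without WT replicate 2 (0.42, unadjusted p = 0.0426) or 5 (0.49, unadjusted p = 0.00977), with limma (unadjusted p = 0.0398), no filter (unadjusted p = 0.0414), a replicate block (unadjusted p = 0.0278) or age as a factor (unadjusted p = 0.0438). The log2 fold change was 0.22 without WT replicate 4 (unadjusted p = 0.181) and 0.14 without WT replicates 3 and 4 (unadjusted p = 0.334). In WT replicate 4 the 9 BMP ligand genes stood at a median of -0.69 against their means over all libraries on the log2 scale, and the fibroblast markers at -1.27; the part of these cells in the level of Bmp4 was not tested.

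**Figure D2:**
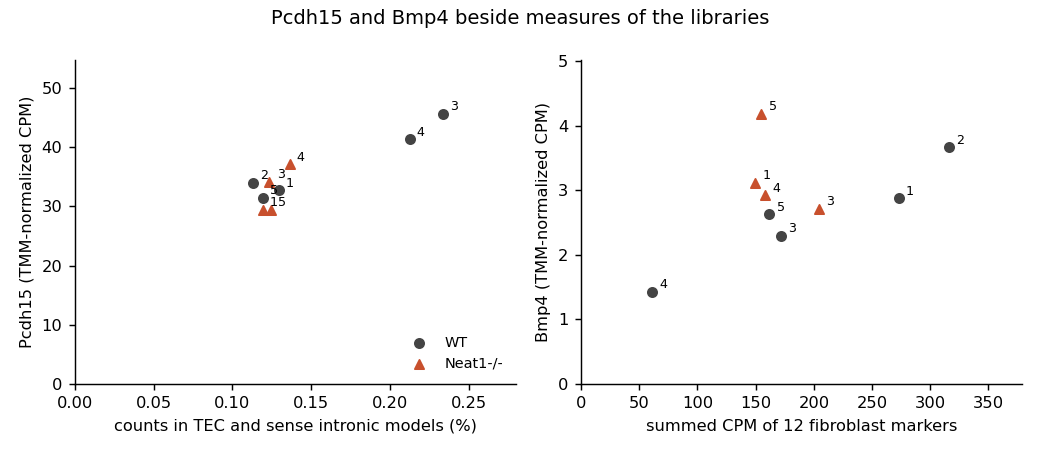
Pcdh15 against the percent of counts in TEC and sense intronic gene models (left), and Bmp4 against the summed CPM of 12 fibroblast markers (right), for each mouse, with replicate numbers (circles, WT; triangles, Neat1-/-). WT replicates 3 and 4 are at the upper right for Pcdh15, with 45.7 and 41.4 CPM, and WT replicate 4 is alone at the lower left for Bmp4, with 1.42 CPM.

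Within a library, the count of an early differentiation marker can be set against that of Pdgfra, which no scaling changes. In the WT mice there were 57.5, 40.5, 35.5, 48.6 and 36.4 Gpr17 counts for every 100 counts of Pdgfra, and in the Neat1-/- mice 37.8, 30.3, 34.3 and 42.4. The groups overlapped, and the highest ratio belonged to WT replicate 1. For Neu4 the ratios ran from 9.24 to 12.1 in WT mice and from 8.51 to 10.9 in Neat1-/- mice. For Bmp4 they ran from 2.14 to 4.38 in WT mice and from 3.47 to 5.65 in Neat1-/- mice. These ratios are given as a description, with no test.

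**Figure D3:**
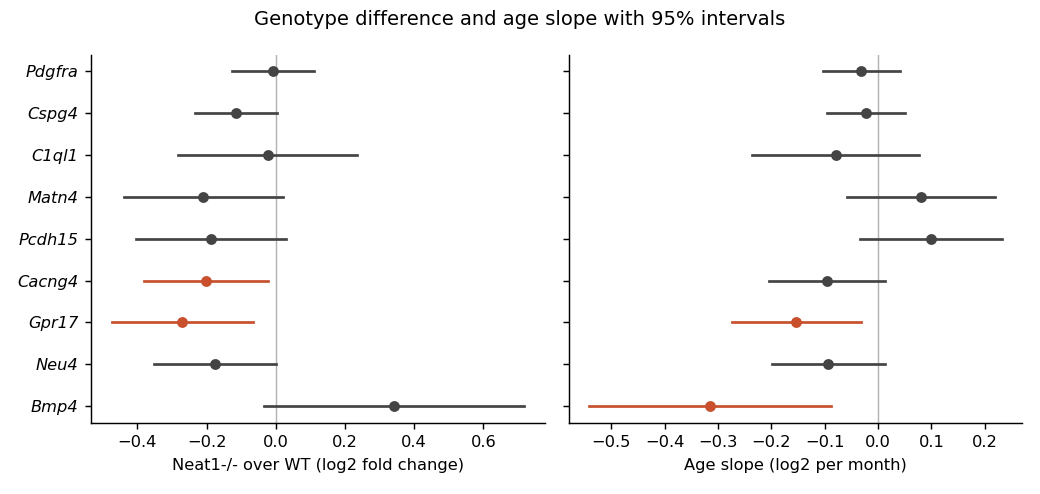
Log2 fold change of Neat1-/- over WT (left) and age slope in log2 per month (right) of the 9 members, as points with 95% intervals from the edgeR fit of genotype and age. Orange marks an unadjusted p under 0.05, which Gpr17 and Cacng4 reached for genotype and Gpr17 and Bmp4 for age.

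The second comparison asked how the markers change from 2 to 4 months of age, in the same fit. Gpr17 and Bmp4 had the steepest slopes, both downward. The slope was negative for 7 of the 9 members, with a median of -0.08 log2 per month (0.0012 for all genes tested), and positive for Matn4 and Pcdh15. At an adjusted p under 0.05, 0 members were called in edgeR, DESeq2 or limma, and 0% of all genes in edgeR. Gpr17 and Bmp4 were lower with age at an unadjusted p under 0.05 (2 of 9 beside 3.12% of all genes), and 0 members were higher beside 2.86%. DESeq2 gave 2 lower and 0 higher, beside 604 and 509 of all genes tested. Limma gave 2 lower and 1 higher, beside 860 and 774 of all genes tested.

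Bmp4 lay between 2.87 and 4.18 CPM in the 3 mice aged 2 months, between 2.30 and 3.11 CPM in the 3 aged 3 months and between 1.42 and 2.92 CPM in the 3 aged 4 months. Its slope was -0.32 log2 per month (standard error 0.1, unadjusted p = 0.0101, edgeR adjusted p = 0.82) or -19.6% each month. With a replicate block the slope was -0.15 (unadjusted p = 0.362), and in the other 18 fits it stayed under an unadjusted p of 0.05. Gpr17 lay between 31.4 and 43.1 CPM at 2 months, 23.7 and 29.4 CPM at 3 months and 25.7 and 32.4 CPM at 4 months. These age groups differ in genotype, since 1 of the 3 mice is Neat1-/- at 2 and 4 months and 2 of the 3 are at 3 months. Among WT mice Gpr17 was 43.1 and 33.9 CPM at 2 months, 27.3 CPM at 3 months and 32.4 and 29.6 CPM at 4 months, and among Neat1-/- mice it was 31.4 CPM at 2 months, 29.4 and 23.7 CPM at 3 months and 25.7 CPM at 4 months. In both genotypes the youngest mice had the highest values. Its slope was -0.15 log2 per month (standard error 0.056, unadjusted p = 0.0172, edgeR adjusted p = 0.82). Without WT replicate 1 it was -0.09 (unadjusted p = 0.129) and without Neat1-/- replicate 5 it was -0.14 (unadjusted p = 0.0509). Neu4, pooled over genotypes in the same way, had 8.10 to 8.78 CPM at 2 months, 6.73 to 7.12 CPM at 3 months and 6.39 to 8.05 CPM at 4 months, and a slope of -0.09 (unadjusted p = 0.0797). It passed an unadjusted p of 0.05 without WT replicate 4 (-0.12, unadjusted p = 0.0388).

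Cacng4 ranged from 7.93 to 10.2 CPM at 2 months, from 7.07 to 8.65 CPM at 3 months and from 7.73 to 8.72 CPM at 4 months. Its slope was -0.10 log2 per month (unadjusted p = 0.0788), and -0.13 without Neat1-/- replicate 4 (unadjusted p = 0.0348). The receptor Pdgfra had a slope of -0.03 (unadjusted p = 0.366), Cspg4 one of -0.02 (unadjusted p = 0.507) and C1ql1 one of -0.08 (unadjusted p = 0.292). Matn4 had a slope of 0.08 (unadjusted p = 0.234), and 0.15 without WT replicate 4 (unadjusted p = 0.0214). For Pcdh15 the slope of 0.10 (unadjusted p = 0.133) was 0.18 without WT replicate 5 (unadjusted p = 0.00235), 0.10 without WT replicate 3 (unadjusted p = 0.0499) and -0.04 with a replicate block. A test of whether the slope differed between genotypes called 0 members at an adjusted p under 0.05 in edgeR, beside 0% of all genes, and 0 at an unadjusted p under 0.05, beside 1.95%; the members' unadjusted p ran from 0.155 for Cacng4 to 0.903 for Gpr17. For Gpr17 the 95% interval of that difference ran from -0.26 to 0.29 log2 per month.

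**Figure D4:**
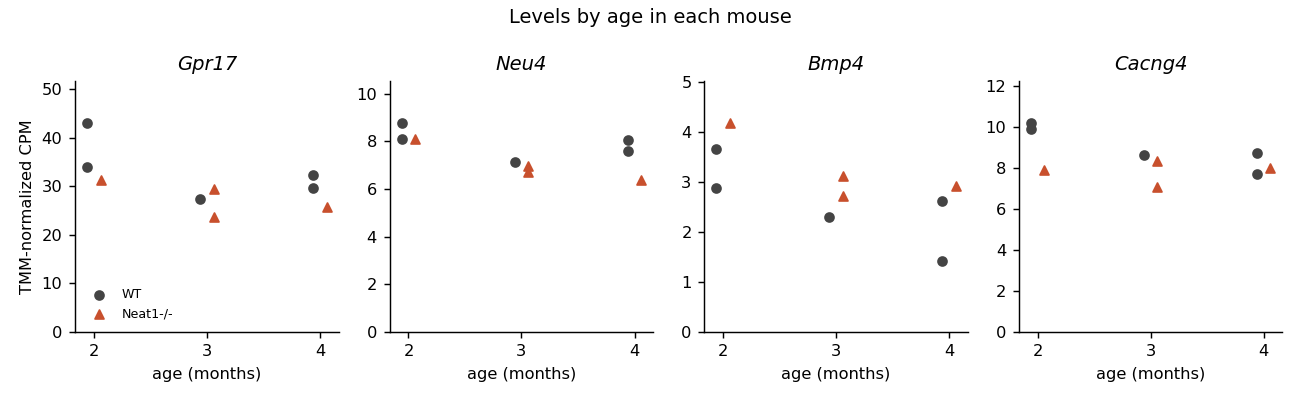
TMM-normalized CPM of Gpr17, Neu4, Bmp4 and Cacng4 (vertical axes, each starting at 0) against age in months, for WT mice (circles) and Neat1-/- mice (triangles), moved slightly apart sideways. Gpr17 and Neu4 have their highest values at 2 months in each genotype, and Bmp4 is lowest in a WT mouse of 4 months.

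Other genes of the lineage, from lists written beside the members, put these values in order of stage. Among 25 other progenitor markers, 3 were lower in Neat1-/- mice at an unadjusted p under 0.05 and 0 were higher, beside 4.03% and 4.27% of all genes. The median log2 fold change of the 25 was -0.03. The 3 were Olig1, Olig2 and Vxn. Olig1 and Olig2, transcription factors that specify the lineage and are kept on in mature OLGs, did not overlap between genotypes, nor did 2.67% of all genes. Olig1 was 40.1 to 46.7 CPM in WT mice and 31.5 to 38.4 CPM in Neat1-/- mice (-0.26 on the log2 scale, edgeR adjusted p = 0.221). Olig2 was 13.8 to 16.4 CPM in WT mice and 9.51 to 13.2 CPM in Neat1-/- mice (-0.40, edgeR adjusted p = 0.264). Vxn, the most abundant of the 3 at 608 CPM in WT mice, had a log2 fold change of -0.09 (adjusted p = 0.588). Its level was far above that of Pdgfra, at 76.7 CPM in WT mice. The part of other cells in the levels of this list was not tested. Pdgfra, in the same libraries, stood at -0.01 with an interval that ends at -0.13; the difference between these genes was not tested.

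At an unadjusted p under 0.05, 4.03% of all genes were lower and 4.27% higher in Neat1-/- mice. Of 16 tested markers of newly formed OLGs, Bmp4 among them, 2 were lower and 0 higher, with a median of -0.04. The 2 were Nfasc, a cell adhesion protein of axons and OLGs, at -0.23 (edgeR adjusted p = 0.319), and Bcas1, a marker of OLGs that start to myelinate, at -0.26 (adjusted p = 0.58). Of 20 markers of mature OLGs, 9 were lower and 0 higher, with a median of -0.26. Opalin, a membrane protein of OLGs, fell short of the test across all genes at -0.40 (adjusted p = 0.467), as did Mal, a proteolipid of myelin, at -0.38 (adjusted p = 0.58), and Car2, a carbonic anhydrase, at -0.16 (adjusted p = 0.543). The count of 9 rested on the fit: limma called 2 lower, and leaving out WT replicates 3 and 4 called 4, with medians of -0.21 and -0.23. Over all genes limma called 868 lower, and leaving out those replicates called 687. Of 19 tested proliferation genes 1 was lower and 0 were higher, beside the 4.03% and 4.27% of all genes. The 1 was Mki67, at 2.82 CPM (WT) and 2.19 CPM (Neat1-/-), or -0.37 on the log2 scale (edgeR adjusted p = 0.581). In limma 0 proliferation genes were lower.

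**Figure D5:**
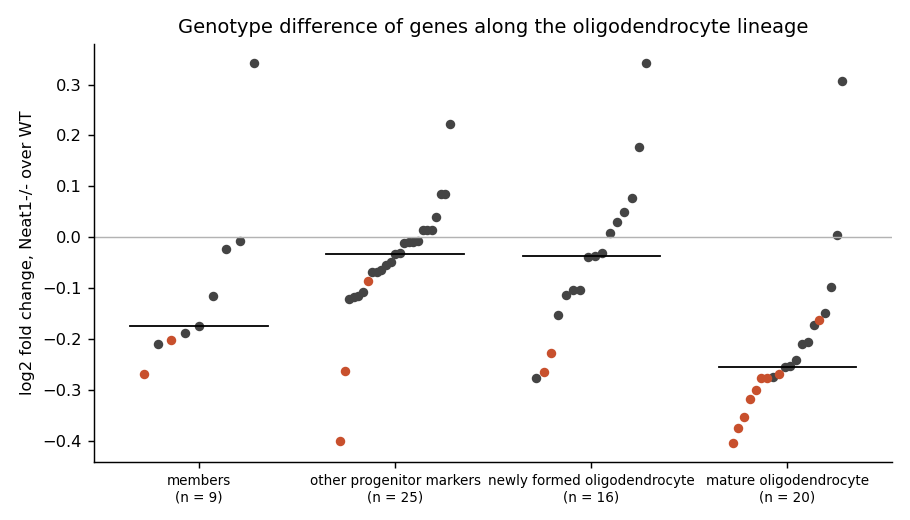
Log2 fold change of Neat1-/- over WT for each of the 9 members, 25 other progenitor markers, 16 markers of newly formed OLGs (Bmp4 among them) and 20 of mature OLGs, sorted within each column, with the median as a line. Orange marks an unadjusted p under 0.05, and the medians run from -0.17 for the members through -0.03 and -0.04 to -0.26 for the mature markers.

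The signals and receptors around the members were then described. By genotype, 4.03% of all genes were lower and 4.27% higher at an unadjusted p under 0.05. By age, 3.12% of all genes were lower and 2.86% higher at that p. These shares are from edgeR. In limma, 868 genes were lower and 1087 higher by genotype. Of 7 genes of PDGF ligands and receptors, Pdgfra included, 0 were lower and 0 higher at an unadjusted p under 0.05 in edgeR and in limma, with a median of 0.04. Pdgfrb, the receptor of mural cells, was 34.2 CPM (WT) and 34.5 CPM (Neat1-/-). Of 9 BMP ligands, 8 had a positive log2 fold change, 0 passed an unadjusted p of 0.05 in edgeR and 3 were higher in limma; the median of 0.23 was 0.12 without WT replicates 3 and 4. Bmp1, which despite its name is a protease, and Bmp3 were the most abundant at 56.7 and 20.5 CPM in WT mice, with log2 fold changes of 0.06 and 0.02. Of 16 BMP receptors, Smads and Id targets, 2 were higher and 0 lower, and limma called 4 higher. Id2, an inhibitor of basic helix-loop-helix factors, was 104 to 113 CPM in WT mice and 121 to 128 CPM in Neat1-/- mice (0.17 on the log2 scale, edgeR adjusted p = 0.193), and Smad9, a transducer of BMP signals, had 0.19 (adjusted p = 0.416). Of 12 BMP antagonists 1 was lower: Sostdc1, at 0.380 CPM (WT) and 0.114 CPM (Neat1-/-), or -1.70 on the log2 scale (edgeR adjusted p = 0.303), a gene that the choroid plexus makes and that was near the limit of counting here. With age, 4 of the 12 antagonists were lower and 1 was higher, among them Noggin's gene Nog with a slope of -0.13 log2 per month (edgeR adjusted p = 0.82), and 2 of the 9 ligands were lower, Bmp4 and Bmp1, the second with -0.07 (adjusted p = 0.82). The remaining related families held 0 genes with an unadjusted p under 0.05 for genotype in edgeR, apart from the members named: sialidases (4 tested), Lhfpl genes (4 tested, among them Lhfpl4 at 87.0 CPM (WT) and 90.2 CPM (Neat1-/-)) and matrilins (3 tested).

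Markers of other cells that could lend counts to the members were measured in the same libraries. At an unadjusted p under 0.05, 2 of 12 fibroblast markers were higher and 0 lower, with sums of 60.7 to 316 CPM in WT mice and 150 to 204 CPM in Neat1-/- mice; without WT replicates 3 and 4, 1 was higher and 4 lower. Slc47a1 and Mgp were the 2, with log2 fold changes of 0.77 and 0.39 (adjusted p = 0.543 and 0.58). Of the 12 fibroblast markers 7 had a positive and 5 a negative log2 fold change. Col1a1 at -0.76, Col1a2 at -0.29 and Dcn at -0.03 were among the negative ones. Of 12 endothelial markers 2 were higher (Itm2a at 0.20 and Slco1a4 at 0.12), of 12 astrocyte markers 1 was higher (Fgfr3 at 0.13), and of 12 neuron markers 0 were lower or higher in edgeR. The endothelial log2 fold changes were positive for 6 and negative for 6, with Cldn5 at 0.001, Flt1 at -0.10 and Pecam1 at -0.06. Those of the astrocyte markers were positive for 9 and negative for 3, with Aqp4 at 0.01, Gja1 at 0.04 and Slc1a3 at -0.002. Of 12 microglia markers 6 were higher, with Ctss at 0.15 and C1qa at 0.17, and sums of 381 to 441 CPM in WT and 420 to 443 CPM in Neat1-/- mice. Others of this list hardly differed, with Csf1r at 0.01, P2ry12 at 0.04, Tmem119 at -0.01 and Cx3cr1 at -0.01. Without WT replicates 3 and 4, 1 microglia marker was higher. Choroid plexus markers had 3 of 9 lower, with Enpp2, which OLGs also make, at -0.19, and Otx2 and Prlr, both under 4 CPM in every mouse, at -1.45 and -1.20; the list summed to 479 CPM in WT replicate 3 and to 293 to 343 CPM elsewhere. Over all 245 distinct genes of the related lists, 21 were lower and 14 higher at an unadjusted p under 0.05 in edgeR, where 4.03% and 4.27% of all genes were. In limma 15 were lower and 21 higher, beside 868 and 1087 of all genes tested. Without WT replicates 3 and 4 there were 28 lower and 8 higher, beside 687 and 751 of all genes tested. At an adjusted p under 0.05, 0 passed in either tool. The part of these cells in the members' levels was not tested.

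The authors also deposited normalized log2 values for 13456 genes, from which covariates had been removed. All 9 members were in that table, and 8 were lower in Neat1-/- mice on its log2 scale. The difference of the means was -0.07 for Pdgfra, -0.16 for Cspg4, -0.04 for C1ql1, -0.27 for Matn4, -0.04 for Pcdh15 and -0.25 for Cacng4. It was -0.27 for Gpr17, -0.17 for Neu4 and 0.18 for Bmp4. Pcdh15 and Bmp4 had smaller differences in this table than in the edgeR fit of the counts, which gave -0.19 and 0.34. The cause was not tested. Cacng4 was the 1 member whose genotypes did not overlap there, in a table where 7.89% of all genes did not overlap.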

How the data were processed

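Frontal cortex RNA of 5 WT and 4 Neat1-/- mice was sequenced by the authors, who deposited raw counts for each Ensembl gene and a table of log2 values. The submitters' notes name STAR 2.5.0 and HTSeq 0.8.0 on mm10, whereas the supplementary methods name TopHat, Bowtie and HTSeq in its strict intersection mode; which made the counts was not settled. By those methods, the authors' log2 values are TMM-normalized, with covariates removed. Counts were used as deposited, with 0 rows that name no gene; 42548 of 43629 identifiers had a GENCODE vM21 name. Totals per library bound the counting precision.

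Genes kept by filterByExpr were tested in edgeR 4.0.16 (R 4.3.3; glmQLFit, glmQLFTest, TMM, age in months and genotype, Benjamini-Hochberg over 19753 genes, threshold 0.05). Alternatives were DESeq2 1.42.0, limma 3.58.1 voomWithQualityWeights, other size factors, filters and age terms, a replicate block, and libraries left out. The edgeR test was tested on simulated data. Single members were compared by exact permutation of CPM. Upstream sequences came from RefSeq (GRCm38.p6). Python 3.11.15 with pandas 2.3.3 and Matplotlib 3.10.9 drew the figures.

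The members and lists were chosen with earlier results of these data known. Named were all members and Neat1, and of each list up to 3 genes at an unadjusted p under 0.05 or else the 2 most abundant; 1 such gene is not reported here. Each library is 1 mouse, and p-values measure the spread between mice.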

Additional observations from a re-analysis of the deposited data

Results flagged for a closer look

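In 2 of 20 groups of values (9 members and Neat1 in each genotype), 1 mouse lay far from the others of its genotype by Dixon's test, which chance alone flags in about 1 of 20 groups. Cspg4 was 26.8 CPM in WT replicate 4, while the nearest WT mouse had 29.4 CPM, and this gap took up a share of 0.738 of the WT range against a critical value of 0.71 for 5 mice. C1ql1 was 3.38 CPM in WT replicate 1, while the nearest WT mouse had 2.72 CPM, a share of 0.747 of the range.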

How the results depend on the processing

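Adjusted calls among the members numbered 0 in every fit run. Members lower in Neat1-/- mice at an unadjusted p under 0.05 numbered 2; they were 4 with limma, library size alone, upper-quartile factors, at least 1 CPM in 4 libraries, or without WT replicates 3 and 4, and 1 (without WT replicate 1) to 4 (without WT replicate 4) with 1 library left out. Members higher numbered 0. There was 1 with limma, no filter, age as a factor, or a replicate block, and 0 to 1 with 1 library left out (1 without WT replicate 2 or 5). Over all genes, 796 were lower and 843 higher. With 1 library left out, lower genes ran from 539 (without Neat1-/- replicate 3) to 1679 (without WT replicate 5). Higher genes then ran from 469 (without WT replicate 4) to 1200 (without WT replicate 5). Members lower with age numbered 2, 1 with the replicate block, and 1 (without WT replicate 1 or Neat1-/- replicate 5) to 3 (without WT replicate 4 or Neat1-/- replicate 4); members higher with age numbered 0, 1 with limma, no filter, or without WT replicates 3 and 4, and 0 to 1 with 1 library left out (1 without WT replicate 3, 4 or 5). Over all genes with 1 library left out, those lower with age ran from 362 (without WT replicate 4) to 1246 (without WT replicate 5). Those higher with age ran from 392 (without WT replicate 2) to 1384 (without WT replicate 5). Slopes that differed between genotypes numbered 0 to 1 (without WT replicate 5, where over all genes 646 were lower and 511 higher). Members at an exact permutation p under 0.05 numbered 0 to 2 (2 without WT replicate 4, 1 without Neat1-/- replicate 3 or 5). List genes numbered 21 lower and 14 higher, 15 and 21 with limma, and 28 and 8 without WT replicates 3 and 4. In the same fits all genes numbered 796 and 843, 868 and 1087, and 687 and 751.

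Reversals were small. Pdgfra's log2 fold change was 0.0054 with limma, 0.0471 with the replicate block and -0.0642 to 0.0291 with 1 library left out; that of C1ql1 was -0.0682 to 0.038. Age slopes under the block were 0.0731 for Pdgfra, 0.062 for Cspg4 and -0.035 for Pcdh15; without WT replicates 3 and 4 they were 0.0157 for Pdgfra and 0.0055 for Cspg4; with 1 library left out, -0.0643 to 0.0133 for Pdgfra and -0.0496 to 0.0049 for Cspg4. The cause was not tested. Mice share only a replicate number: deviations of same-numbered mice correlated at 0.04, -0.04, 0.14 and -0.08, so the block is no paired analysis. Over all genes, adjusted genotype calls numbered 14, but 76 with DESeq2, 22 with limma, 76 without a filter, 30 without WT replicate 5, 9 without WT replicate 1 and 8 without Neat1-/- replicate 1; age calls numbered 0, and at most 15, without a filter.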
